A study of Mus musculus with 4 samples.

Results

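The 34 genes described here build and control the DNA replication machinery: 9 license origins, 4 activate the replicative helicase, 9 are polymerases, clamp factors and lagging-strand enzymes, 4 supply nucleotides, 3 restore chromatin behind the fork and 5 drive the passage from G1 into S phase. They were listed by name and found by gene symbol among the 53647 genes of the deposited count tables, and all 34 were among the 12972 genes with enough counts to be tested. RNA was sequenced from 4T1, a mouse mammary carcinoma cell line, labelled WT, in 2 libraries from cells given uniSTING mRNA and 2 libraries from cells given Mock mRNA, which encodes EGFP (enhanced green fluorescent protein). By the series' title uniSTING is a mimic of STING, the adaptor of cytosolic DNA sensing, and the stated question was how it acts on type I interferon and other downstream pathways. Cells of both groups therefore received an mRNA. The mRNA was delivered with a transfection reagent or in lipid nanoparticles, and the labels leave the carrier of each library, the dose and the time of harvest unstated.

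The libraries held 18843543 and 25071840 counted read pairs for uniSTING and 17502694 and 22039546 for Mock, and each of the 34 genes had between 119 and 29851 counts in each library. The labels call the libraries preparations 1 and 2 and do not say that they came from separate cultures, so p-values measure only how these libraries differ among themselves, and that may be technical. The variance between the libraries of one group was 1.51 times counting noise for uniSTING and 1.47 times for Mock, and edgeR's common coefficient of variation was 3.15%. Differences of a few percent could therefore pass the test, and the size of each change is given beside its call. Markers of the mammary epithelium were high in all 4 libraries, at a summed 3644 and 3670 CPM (counts per 1000000 counted read pairs, after TMM scaling) with uniSTING and 3554 and 3578 CPM with Mock over 6 genes. The 6 leukocyte markers together reached 11.96 and 10.4 CPM with uniSTING and 8.91 and 6.43 CPM with Mock, with 2, 5, 3 and 5 of them at 0, the 6 fibroblast markers reached 12.9 and 9.60 CPM against 10.2 and 7.92 CPM, and the 4 endothelial markers reached 1.23 and 0.321 CPM against 1.87 and 0.226 CPM.

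DNA replication is set up in G1, when the origin recognition complex, Cdc6 and Cdt1 load the ring of Mcm2 to Mcm7 onto origins. In S phase the loaded ring is turned into an active helicase by Cdc45 and the GINS complex, with Mcm10 assisting. DNA polymerase alpha and its primase then start each strand, polymerase epsilon extends the leading strand and polymerase delta the lagging one, and the PCNA clamp, placed by replication factor C, holds them on DNA. D-type cyclins with Cdk4 or Cdk6 and E-type cyclins with Cdk2 phosphorylate the retinoblastoma protein, which releases E2F factors, and many of the genes described here are textbook E2F targets.

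E2F factors bind words such as TTTCCCGC, TTTGGCGC, TTTCGCGC and TTTGCCGC. The promoters shown here were chosen after the values were seen, from genes that each hold such a word and had different calls. Each window runs from 250 bases before to 50 bases after a RefSeq start site on GRCm38.p6, is written 5′ to 3′ along the gene, and has the matching letters in capitals, on either strand. Mcm6 lies on the minus strand at chr1:128359656-128359955 with 3 matches, a pair of which overlap, and Mcm3 on the minus strand at chr1:20820263-20820562 with 2 matches. Mcm5 lies on the plus strand at chr8:75109259-75109558 with 2 overlapping matches, and Rfc3 on the minus strand at chr5:151651159-151651458 with 2 matches.
Mcm6: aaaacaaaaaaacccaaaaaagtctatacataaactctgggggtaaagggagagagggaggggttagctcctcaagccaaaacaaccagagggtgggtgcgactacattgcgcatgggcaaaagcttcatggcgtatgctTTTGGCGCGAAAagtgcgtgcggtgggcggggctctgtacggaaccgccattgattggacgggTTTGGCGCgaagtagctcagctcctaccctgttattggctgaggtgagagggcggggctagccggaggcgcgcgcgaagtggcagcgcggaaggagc
Mcm3: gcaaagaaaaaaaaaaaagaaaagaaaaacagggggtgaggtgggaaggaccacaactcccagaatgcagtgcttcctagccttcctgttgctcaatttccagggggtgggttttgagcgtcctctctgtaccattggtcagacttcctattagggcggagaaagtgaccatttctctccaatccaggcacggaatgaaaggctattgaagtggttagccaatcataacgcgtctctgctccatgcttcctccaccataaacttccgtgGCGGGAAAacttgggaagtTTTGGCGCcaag
Mcm5: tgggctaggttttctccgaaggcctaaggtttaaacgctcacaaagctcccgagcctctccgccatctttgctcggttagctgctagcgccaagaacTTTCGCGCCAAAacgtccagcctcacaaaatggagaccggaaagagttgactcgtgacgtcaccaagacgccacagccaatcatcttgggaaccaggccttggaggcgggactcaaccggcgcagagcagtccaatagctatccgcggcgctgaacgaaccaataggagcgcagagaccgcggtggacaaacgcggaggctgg
Rfc3: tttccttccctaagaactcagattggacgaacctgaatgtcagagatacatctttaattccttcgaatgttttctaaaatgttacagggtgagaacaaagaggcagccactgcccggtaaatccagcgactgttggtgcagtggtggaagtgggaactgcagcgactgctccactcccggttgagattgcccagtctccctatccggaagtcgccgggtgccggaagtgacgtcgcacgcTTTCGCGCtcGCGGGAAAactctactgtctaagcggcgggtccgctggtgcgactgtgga
In the RNA measured here Mcm6 and Mcm3 were lower with uniSTING, Mcm5 was at the same level within its spread, and Rfc3 was higher.

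With uniSTING, 14 of the 34 genes fell, 10 rose and 10 did not pass the test (edgeR's quasi-likelihood test with Benjamini-Hochberg adjustment over all tested genes, adjusted p under 0.05). The 14 that fell were Cdc6, Cdt1, Mcm2, Mcm3, Mcm4, Mcm6, Mcm7, Mcm10, Pold1, Pole, Rrm1, Uhrf1, Chaf1a and Ccnd1, and the 10 that rose were Cdc45, Gins2, Prim1, Pcna, Rfc3, Fen1, Tyms, Tk1, Ccne1 and Ccne2. The background was high: 50.2% of all tested genes passed, 25.4% downward and 24.9% upward, against 70.6% of these genes, 41.2% downward and 29.4% upward. Among the 9134 tested genes whose mean level was at or above that of the lowest of the 34, the shares were 32% downward and 29.6% upward. The changes were small. The fold changes ran from -0.59 for Pole to 0.52 for Ccne2 on the log2 scale (uniSTING over Mock), with a median of -0.0085 against 0.0058 over all tested genes. Of the 24 that changed, 6 did so by at least 1.25-fold, 1 by at least 1.5-fold and 0 by at least 2-fold, and their median absolute log2 fold change was 0.24, against 0.33 for all genes that changed. All 24 had the same sign in both replicate numbers. That nearly has to follow from passing a test on these same 4 libraries, so it is no separate evidence. The uniSTING libraries lay wholly below the Mock libraries for 16 genes and wholly above them for 11, against 37.3% and 37.8% of all tested genes, and they overlapped for 7. These 2 shares were not matched for level.

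**Figure D1:**
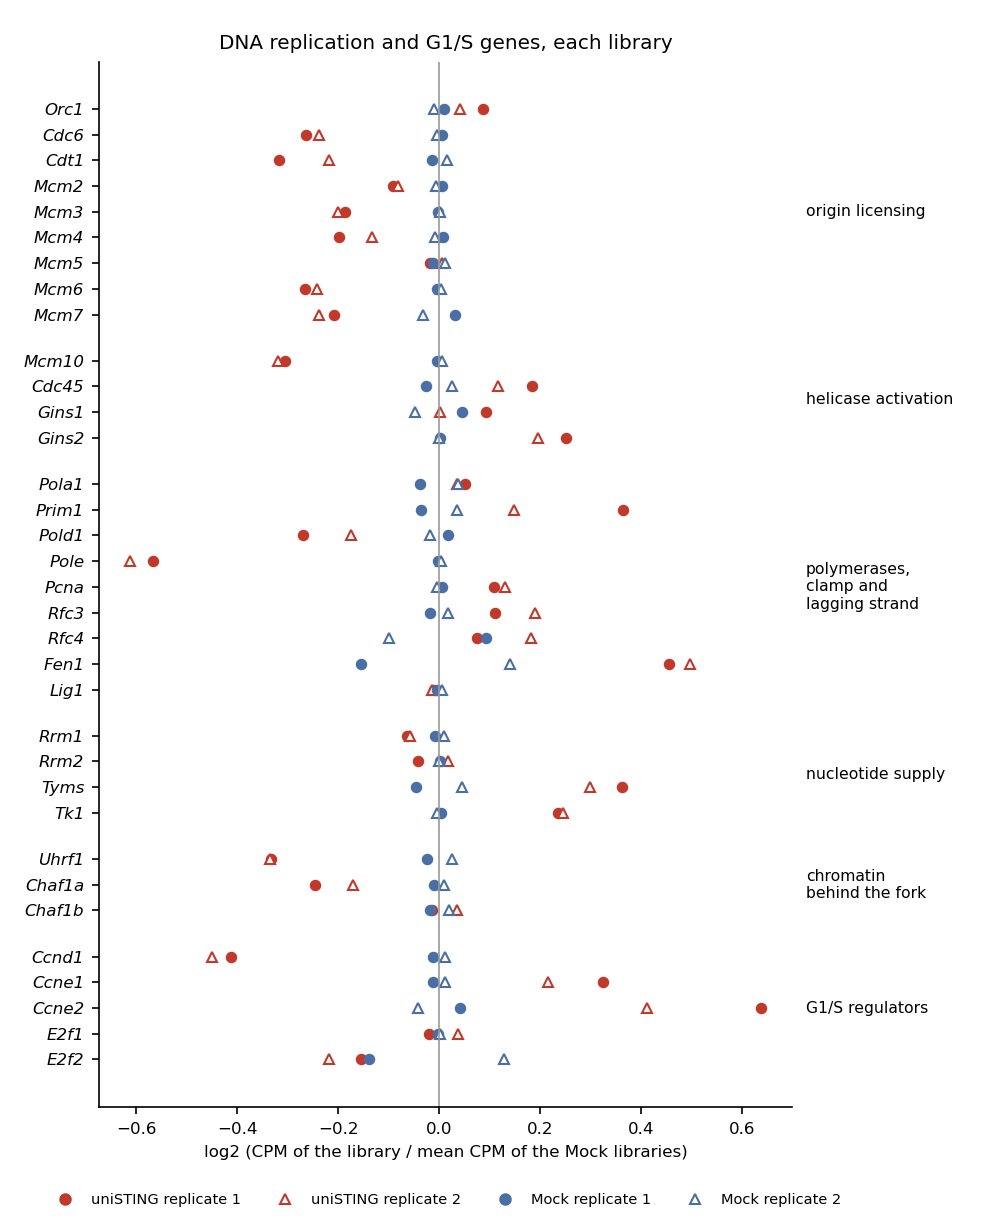
Level of each of the 34 genes in each library, as the log2 ratio of its CPM to the mean CPM of the Mock libraries (x axis), grouped by role; uniSTING libraries are red, Mock libraries blue, circles are replicate 1 and triangles replicate 2. The licensing genes lie mostly left of 0, Pole and Ccnd1 lie farthest to the left, and Ccne2 and Fen1 farthest to the right.

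The number of genes that rose depended on the test and on single libraries: it was 5 with DESeq2 and 6 without Mock replicate 1, while the number that fell lay between 12 and 15 in each setting tried. Under all 13 settings with a test, 15 genes kept their call, 11 that fell (Cdc6, Cdt1, Mcm3, Mcm4, Mcm6, Mcm7, Mcm10, Pold1, Pole, Uhrf1 and Ccnd1) and 4 that rose (Prim1, Tyms, Tk1 and Ccne2). In bulk RNA a lower level per cell and fewer cells in the phase that expresses a gene cannot be told apart.

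Of the 9 genes of origin licensing 7 fell, 0 rose and 2 did not pass, with a median log2 fold change of -0.19. Among tested genes at or above the lowest level of the 34, 32% fell and 29.6% rose. The 9 had a median level of 268 CPM, against 104 CPM over the 34, and small changes pass more easily at high counts. Whether the 9 departed from these shares was not tested. Of 10 other genes that the wider list given below groups under origin licensing, 3 fell (Mcmbp, Mcm8 and Mcm9) and 5 rose (Orc2, Orc4, Orc6, Gmnn and Hat1). That group is mixed, since Gmnn inhibits Cdt1. Mcmbp, Mcm8, Mcm9 and Hat1 belong neither to the ring of Mcm2 to Mcm7 nor to the origin recognition complex. Its counts therefore say little about licensing as a whole. Cdt1, which brings the Mcm ring to origins, had 161 and 173 CPM with uniSTING, against 199 and 203 CPM with Mock. Its uniSTING libraries both lay below both Mock libraries, and it fell by 0.26 on the log2 scale (SE 0.03, adjusted p = 5.86e-05, edgeR). Its partner Cdc6, an ATPase that loads the ring with it, had 47.2 and 48.0 CPM with uniSTING, against 56.9 and 56.4 CPM with Mock. The groups did not overlap, and Cdc6 fell by 0.25 (SE 0.05, edgeR adjusted p = 0.00194). Orc1, the ATPase subunit of the origin recognition complex, had 30.3 and 29.3 CPM with uniSTING and 28.7 and 28.3 CPM with Mock, and its log2 fold change of 0.06 did not pass (SE 0.07, edgeR adjusted p = 0.47).

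Of the 6 subunits of the Mcm ring, 5 fell and Mcm5 did not pass. These 6 are among the licensing genes counted above, and the shares given there apply. Mcm6 had 341 and 346 CPM with uniSTING, against 408 and 411 CPM with Mock (343.5 ± 4.08 and 409.4 ± 1.73 CPM, mean ± SD, n = 2 each). The gap between the groups was many times the spread within them, and Mcm6 fell by 0.25 (SE 0.02, edgeR adjusted p = 1.66e-06). Mcm7 had 283 and 277 CPM with uniSTING, against 334 and 320 CPM with Mock, a fall of 0.22 (SE 0.03, edgeR adjusted p = 2.96e-05). Mcm3 had 318 and 315 CPM with uniSTING, against 362 and 363 CPM with Mock, a fall of 0.19 (SE 0.02, edgeR adjusted p = 1.33e-05). The groups overlapped for neither gene. Mcm4 had 205 and 215 CPM with uniSTING, against 237 and 234 CPM with Mock, and fell by 0.16 (SE 0.03, edgeR adjusted p = 0.000452). Mcm2 had 259 and 261 CPM with uniSTING, against 277 and 274 CPM with Mock, and its fall of 0.086 (SE 0.02, edgeR adjusted p = 0.00667) was the smallest among the Mcm genes that passed. The adjusted p of Mcm2 was 0.0537 with DESeq2 and 0.647 with the length trend removed. Mcm5 had 422 and 429 CPM with uniSTING and 424 and 431 CPM with Mock. Its 4 libraries interleaved, and its log2 fold change was -0.0063 (SE 0.02, edgeR adjusted p = 0.815).

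On the RPKM scale, a level per length obtained by dividing the CPM by the summed exon length in kilobases, the 6 subunits kept one order of levels in all 4 libraries: Mcm5, Mcm3, Mcm6, Mcm7, Mcm4 and Mcm2, from high to low. Mean levels were 107, 84.4, 73.6, 63.2, 58.5 and 37.3 RPKM with uniSTING and 107, 96.6, 87.7, 73.8, 65.6 and 39.6 RPKM with Mock. Neighbours in this order did not overlap in any library of the same group. The order rests on the summed exon length, which covers all annotated exons and may exceed that of a single transcript. By CPM alone Mcm6 lay above Mcm3 and Mcm2 above Mcm4 in all 4 libraries. The level of Mcm6 relative to Mcm5, a pair chosen after their values were seen, was 0.691 and 0.690 with uniSTING and 0.824 and 0.815 with Mock. This ratio within each library does not depend on the scaling between libraries, and it was lower in both uniSTING libraries. Gene coordinates are those of the tables, on GRCm39: Mcm6 (ENSMUSG00000026355) at chr1:128259327-128287401 and Mcm5 (ENSMUSG00000005410) at chr8:75836197-75855067.

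**Figure D2:**
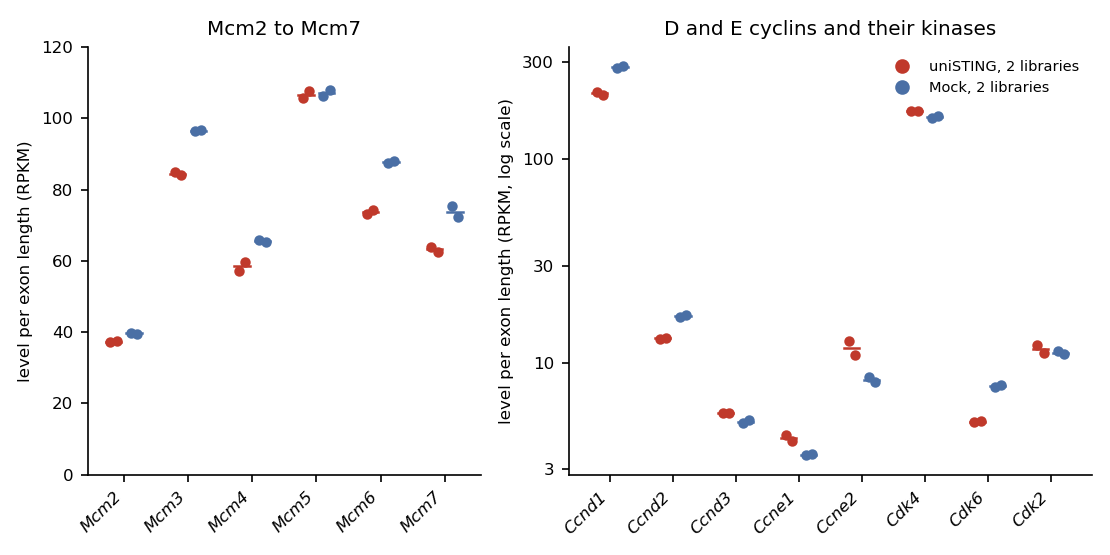
Levels per summed exon length (RPKM) of Mcm2 to Mcm7 on a linear axis (left) and of the D and E cyclins and their kinases on a log axis (right); points are libraries, short lines group means, uniSTING in red left of Mock in blue. Mcm5 has the same mean of 107 RPKM in both groups while Mcm3, Mcm6 and Mcm7 are lower with uniSTING, and Ccnd1 is lower and Ccne2 higher with uniSTING.

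The 4 genes of helicase activation did not move together: 1 fell, 2 rose and 1 did not pass. Mcm10, which helps to start the unwound fork, had 77.6 and 76.9 CPM with uniSTING, against 95.5 and 96.2 CPM with Mock. Both uniSTING libraries were lower, and Mcm10 fell by 0.31 (SE 0.03, edgeR adjusted p = 1.36e-05), or by 0.19 with the length trend removed. Cdc45, the helicase cofactor, had 62.2 and 59.4 CPM with uniSTING, against 53.8 and 55.8 CPM with Mock, and rose by 0.15 (SE 0.05, edgeR adjusted p = 0.0313). The groups did not overlap, but the adjusted p of Cdc45 was 0.153 with DESeq2, 0.129 without Mock replicate 1, 0.0734 without Mock replicate 2, 0.0954 with the length trend removed and 0.087 without uniSTING replicate 1. Gins2, a subunit of the GINS complex, had 45.2 and 43.5 CPM with uniSTING, against 38.0 and 38.0 CPM with Mock, and rose by 0.22 (SE 0.06, edgeR adjusted p = 0.0111). In the annotation 67.3% of the exon bases of Gins2 also belong to Gse1, and its adjusted p was 0.0539 with DESeq2 and 0.0527 without Mock replicate 1. Gins1, another GINS subunit, had 28.8 and 27.0 CPM with uniSTING and 27.9 and 26.1 CPM with Mock, with overlapping groups and a log2 fold change of 0.047 (SE 0.07, edgeR adjusted p = 0.625).

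Among the polymerases, the catalytic subunits of the leading-strand and lagging-strand enzymes fell, while the primase rose. Pole, the catalytic subunit of polymerase epsilon (ENSMUSG00000007080, chr5:110434172-110485340), had 81.1 and 78.7 CPM with uniSTING, against 120 and 120 CPM with Mock (79.9 ± 1.72 and 120.2 ± 0.293 CPM, mean ± SD, n = 2 each). Both uniSTING libraries lay far below both Mock libraries, and Pole fell by 0.59 on the log2 scale (SE 0.03, edgeR adjusted p = 9.38e-08), the largest change among the 34 genes in this fit, and by 0.38 with the length trend removed, where Ccne2, Ccnd1 and Tyms changed more. Pold1, the catalytic subunit of polymerase delta, had 90.0 and 96.0 CPM with uniSTING, against 110 and 107 CPM with Mock, and fell by 0.22 (SE 0.04, edgeR adjusted p = 0.0006). Pola1, the catalytic subunit of polymerase alpha, had 109 and 108 CPM with uniSTING and 103 and 108 CPM with Mock. Its groups overlapped and its log2 fold change of 0.040 did not pass (SE 0.03, edgeR adjusted p = 0.359). The level of Pole relative to Pola1 per exon length, a pair chosen after the values were seen, was 0.586 and 0.575 with uniSTING and 0.922 and 0.878 with Mock. This ratio still holds the length trend, which was -0.22 for Pole and -0.15 for Pola1 on the log2 scale. Prim1, the catalytic subunit of the primase, had 95.3 and 82.1 CPM with uniSTING, against 72.2 and 75.9 CPM with Mock. Its uniSTING libraries differed more from each other than its Mock libraries did, but both were higher, and Prim1 rose by 0.25 (SE 0.06, edgeR adjusted p = 0.00583).

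The clamp and lagging-strand genes rose or did not pass. Pcna, the sliding clamp, had 409 and 415 CPM with uniSTING, against 381 and 378 CPM with Mock, and rose by 0.12 (SE 0.02, edgeR adjusted p = 0.000408). The spread was small in both groups, but with the length trend removed the log2 fold change of Pcna was 0.0089 (edgeR adjusted p = 0.747). Rfc3, a subunit of the clamp loader, had 69.3 and 73.3 CPM with uniSTING, against 63.4 and 65.1 CPM with Mock, and rose by 0.15 (SE 0.04, edgeR adjusted p = 0.0142). Its groups did not overlap, but its adjusted p was 0.110 with DESeq2 and 0.0785, 0.0613 and 0.171 without Mock replicate 1, Mock replicate 2 and uniSTING replicate 2. Rfc4, another subunit, had 47.2 and 50.9 CPM with uniSTING and 47.8 and 41.9 CPM with Mock, and its log2 fold change of 0.14 did not pass (SE 0.07, edgeR adjusted p = 0.145). Without Mock replicate 1, its highest Mock library, Rfc4 was higher by 0.22 with an edgeR adjusted p of 0.0393, and without uniSTING replicate 1 by 0.19 with 0.0141. Fen1, the nuclease that trims Okazaki fragments, had 10.3 and 10.6 CPM with uniSTING, against 6.75 and 8.28 CPM with Mock, and rose by 0.47 (SE 0.12, edgeR adjusted p = 0.00803). Both uniSTING libraries were higher, but 84.2% of its exon bases are shared with Tmem258 and Gm10143, and the call was lost without Mock replicate 1 (log2 fold change 0.33, adjusted p = 0.0544) and with DESeq2 (0.0637). Lig1, which seals the fragments, had 184 and 184 CPM with uniSTING and 185 and 186 CPM with Mock, a log2 fold change of -0.012 (SE 0.02, edgeR adjusted p = 0.703).

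In nucleotide supply the thymidylate genes rose, while the small differences of the ribonucleotide reductase subunits depended on the fit. Tyms, thymidylate synthase, had 132 and 127 CPM with uniSTING, against 99.6 and 106 CPM with Mock (129.4 ± 4.01 and 102.9 ± 4.66 CPM, mean ± SD, n = 2 each). Both uniSTING libraries were higher, and Tyms rose by 0.33 (SE 0.04, edgeR adjusted p = 3.13e-05). Tk1, the thymidine kinase of the salvage route, had 201 and 203 CPM with uniSTING, against 172 and 170 CPM with Mock, and rose by 0.24 (SE 0.02, edgeR adjusted p = 1.16e-05). Rrm1, the large subunit of ribonucleotide reductase, had 375 and 376 CPM with uniSTING, against 389 and 394 CPM with Mock, and its fall of 0.061 was the smallest change that passed among the 34 (SE 0.02, edgeR adjusted p = 0.0213). That call was lost with DESeq2 (adjusted p = 0.110), with no filter (0.0688), without Mock replicate 2 (0.100) and without uniSTING replicate 1 (0.0942), and with the length trend removed Rrm1 was instead higher, by 0.15 (edgeR adjusted p = 0.000129). Rrm2, the small subunit, had 272 and 284 CPM with uniSTING and 281 and 280 CPM with Mock, with overlapping groups and a log2 fold change of -0.011 (SE 0.02, edgeR adjusted p = 0.751), or -0.091 with the length trend removed (0.0132). Per exon length and within each library, Tyms stood at 0.638 and 0.608 of the level of Rrm1 with uniSTING and at 0.463 and 0.487 with Mock. Tk1 stood at 1.14 and 1.14 of it with uniSTING and at 0.933 and 0.916 with Mock. Both pairs were chosen after the values were seen. Dividing by exon length does not remove the length trend, which was -0.21 for Rrm1, -0.069 for Tyms and -0.039 for Tk1 on the log2 scale. With it removed, Tyms rose by 0.39, Tk1 by 0.28 and Rrm1 by 0.15, so these ratios differ less between the groups.

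Of the genes that restore chromatin, 2 fell and 1 did not pass. Uhrf1, which binds hemimethylated DNA and recruits the maintenance methyltransferase (ENSMUSG00000001228, chr17:56610321-56630486), had 263 and 263 CPM with uniSTING, against 326 and 337 CPM with Mock (263.1 ± 0.391 and 331.7 ± 8.01 CPM, mean ± SD, n = 2 each). Both uniSTING libraries were lower, and Uhrf1 fell by 0.34 (SE 0.02, edgeR adjusted p = 6.48e-07). Dnmt1, that methyltransferase, belongs to the wider list of replication genes and fell by 0.67 (SE 0.02, edgeR adjusted p = 3.2e-09), with 252 and 261 CPM with uniSTING, against 405 and 410 CPM with Mock. Chaf1a, the large subunit of chromatin assembly factor 1, had 100 and 105 CPM with uniSTING, against 118 and 119 CPM with Mock, and fell by 0.20 (SE 0.03, edgeR adjusted p = 0.000435). In the annotation 52.5% of the exon bases of Chaf1a are shared with Ubxn6, and its log2 fold change was -0.052 with the length trend removed (edgeR adjusted p = 0.232). Chaf1b, its middle subunit, had 72.9 and 75.4 CPM with uniSTING and 72.7 and 74.6 CPM with Mock, and its 4 libraries interleaved (log2 fold change 0.011, SE 0.04, edgeR adjusted p = 0.843).

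The cyclins of G1 moved in opposite directions. Ccnd1, cyclin D1, which partners Cdk4 and Cdk6 (ENSMUSG00000070348, chr7:144483668-144493662), had 1007 and 981 CPM with uniSTING, against 1328 and 1351 CPM with Mock (994.3 ± 18.3 and 1339.5 ± 16 CPM, mean ± SD, n = 2 each). It had the highest level per exon length of the 34 genes in both groups, at 211 RPKM with uniSTING and 284 RPKM with Mock, and it fell by 0.43 (SE 0.02, edgeR adjusted p = 6.37e-09). In the annotation 23.4% of its exon bases are shared with a neighbouring gene. Ccne2, cyclin E2, which partners Cdk2 (ENSMUSG00000028212, chr4:11191351-11204779), had 44.6 and 38.2 CPM with uniSTING, against 29.6 and 27.9 CPM with Mock. Both uniSTING libraries were higher, and Ccne2 rose by 0.52 (SE 0.08, edgeR adjusted p = 0.000347), the largest rise among the 34, also with the length trend removed (0.49). Ints8 shares 17.4% of its exon bases. Ccne1, cyclin E1, had 11.7 and 10.9 CPM with uniSTING, against 9.31 and 9.46 CPM with Mock, and rose by 0.27 (SE 0.10, edgeR adjusted p = 0.0467). Its groups did not overlap, but the adjusted p was 0.288 with DESeq2, 0.0520 with the replicate number as a block, 0.0597 with library totals alone, 0.0675 with no filter, 0.0668 with limma-voom, 0.17 with the length trend removed and between 0.0591 and 0.159 with any library left out. The level of Ccne2 relative to Ccnd1 per exon length, a pair chosen after the values were seen, was 0.0597 and 0.0524 with uniSTING and 0.0300 and 0.0278 with Mock, a ratio of means of 1.94. Of the summed level of the D and E cyclins, Ccnd1 made up 85.6% and 86.0% with uniSTING and 89.3% and 89.5% with Mock.

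The E2F factors of the list did not pass. E2f1, an activator of S phase genes, had 48.9 and 50.9 CPM with uniSTING and 49.5 and 49.7 CPM with Mock, with overlapping groups and a log2 fold change of 0.0097 (SE 0.05, edgeR adjusted p = 0.898). E2f2, another activator, had 15.1 and 14.5 CPM with uniSTING and 15.3 and 18.4 CPM with Mock, a log2 fold change of -0.19 (SE 0.10, edgeR adjusted p = 0.118). Its uniSTING libraries were lower than both Mock libraries, one of them narrowly, and without Mock replicate 1 the log2 fold change was -0.32 with an edgeR adjusted p of 0.0156.

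The complexes to which these genes belong hold other subunits, which were chosen by their complex after values had been seen. Of the 6 subunits of the origin recognition complex 0 fell and 3 rose, Orc2 by 0.19, Orc4 by 0.13 and Orc6 by 0.24 on the log2 scale. Both primase subunits rose, Prim2 by 0.32 beside Prim1, while Pola1 and Pola2 did not pass. Of replication factor C, 3 of 5 subunits rose, among them Rfc5 by 0.23 and Rfc2 by 0.14, and the large subunit Rfc1 fell by 0.39. Polymerase delta had 2 subunits lower and 1 higher, Pold4, with 15.1 and 15.9 CPM with uniSTING and 7.89 and 7.51 CPM with Mock. Polymerase epsilon had 1 lower (Pole), 1 higher (Pole3, by 0.11) and 2 that did not pass, GINS had 2 higher (Gins2 and Gins4) and 2 that did not pass, and chromatin assembly factor 1 had 1 lower (Chaf1a), 1 higher (Rbbp4, by 0.065) and 1 that did not pass. With the length trend removed, Gins4 (adjusted p = 0.851), Pole3 (0.534) and Chaf1a (0.232) no longer passed in edgeR, while Orc2, Orc4, Orc6, Prim2, Rfc1, Rfc2, Rfc5, Pold4 and Rbbp4 kept their call. Both with and without the trend, polymerase delta and replication factor C each held a subunit that fell and a subunit that rose. Among tested genes at or above the lowest mean level of the genes described here, 32% fell and 29.6% rose without the removal. With shares this high, calls in both directions within a complex are not unusual by themselves. Whether any complex departed from these shares was not tested.

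Of a wider list of 106 other replication and G1/S genes, 103 were tested, 36 fell, 31 rose and 36 did not pass, with a median log2 fold change of -0.017. These are 35.0% downward and 30.1% upward, near the 32% and 29.6% of tested genes at or above the lowest level of the 34. The largest falls in it were those of Cad, which starts pyrimidine synthesis (200.4 and 201.9 CPM with uniSTING, against 381 and 390.1 CPM with Mock, log2 fold change -0.94), Dnmt1 (-0.67), Cdk6 (-0.59) and the repressor E2f7 (-0.51). The largest rises were those of Pold4, the small subunit of polymerase delta (1.02), Rnaseh2c, a subunit of ribonuclease H2 (0.52), Rpa3, a subunit of the single-strand binding protein RPA (0.47), and Cdkn2d, an inhibitor of Cdk4 and Cdk6 (0.41). Each of these 8 passed in edgeR at an adjusted p under 0.05, also with the length trend removed, where the log2 fold changes were -0.80 for Cad, -0.55 for Dnmt1, -0.30 for Cdk6, -0.36 for E2f7, 0.79 for Pold4, 0.34 for Rnaseh2c, 0.24 for Rpa3 and 0.21 for Cdkn2d. Around the cyclins, Ccnd2 fell by 0.36, Rb1 by 0.37, E2f3 by 0.45 and E2f8 by 0.27, and Cdk4 rose by 0.090, the Cdk inhibitor Cdkn1b by 0.20, the Cdt1 inhibitor Gmnn by 0.37 and Rpa1 by 0.13. Cdk2 (0.059, adjusted p = 0.354), Ccna2 (-0.040, 0.163), Ccnd3 (0.14, 0.0555) and the p53 target Cdkn1a (0.070, 0.577) did not pass in edgeR. With the length trend removed, Cdk4 no longer passed (adjusted p = 0.0915) and Ccnd3 did (0.29, 0.00158). For comparison, of 30 genes of G2 and mitosis 10 fell, 12 rose and 8 did not pass, with a median log2 fold change of 0.0036. Their log2 fold changes ran from -0.93 for Mki67 to 0.40 for Mad2l1, so the median hides large changes. With the length trend removed 10 fell, 11 rose and 9 did not pass, and the range was -0.74 for Mki67 to 0.54 for Mad2l1.

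Across all tested genes, long genes were lower with uniSTING, and the 34 genes were set against that trend. Of the tested genes with at most 2.40 kb of exon, 7.09% fell and 37.6% rose. From 2.40 to 4.15 kb 15.9% fell and 29.0% rose, from 4.15 to 6.56 kb 29.6% fell and 20.9% rose, and over 6.56 kb 48.8% fell and 11.9% rose. The 34 genes had a median exon length of 4.16 kb, against 4.15 kb for all tested genes, so as a group they were neither long nor short. Of the 15 between 2.40 and 4.15 kb, 3 fell and 8 rose, of the 11 up to 6.56 kb, 6 fell and 2 rose, and of the 6 longer ones, 5 fell and 0 rose. Spearman's correlation of fold change with length was -0.46 over the 34 genes and -0.36 over all tested genes, as a description across genes, which are not independent.

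Once the trend with exon length was removed from the counts of each library, 12 of the 34 fell, 9 rose and 13 did not pass. Over all tested genes the shares were 22.2% downward and 23.4% upward. In this fit no share was taken among genes at or above the lowest level of the 34. Without the removal, that share was 32% downward and 29.6% upward, above the 25.4% and 24.9% of all tested genes. The call was the same in both fits for 26 genes, of which 11 were lower and 7 higher. Of the 9 licensing genes among the 34, 6 passed as lower and 0 rose, with a median of -0.21. Of the 10 other genes grouped under licensing in the wider list, a mixed group, 2 fell and 5 rose with the trend removed. The fall of Pole was 0.38 with the trend removed (edgeR adjusted p = 5.73e-06) and that of Mcm10 0.19 (edgeR adjusted p = 0.000706), both smaller than without it, since Pole has 11.16 kb and Mcm10 7.69 kb of exon. Ccnd1 (-0.41), Uhrf1 (-0.33), Cdt1 (-0.32), Tyms (0.39), Tk1 (0.28) and Ccne2 (0.49) moved little. The call ended for Mcm2 (0.013, adjusted p = 0.647), Chaf1a (-0.052, 0.232), Pcna (0.0089, 0.747), Cdc45 (0.11, 0.0954) and Ccne1 (0.18, 0.17) in the edgeR fit. Rrm1 turned, with a log2 fold change of 0.15 (edgeR adjusted p = 0.000129) at an exon length of 11.01 kb, and Pola1 (0.19, 0.000983) and Rrm2 (-0.091, 0.0132) gained a call. What gives rise to the length trend was not tested, so for Mcm2, Chaf1a, Pcna, Cdc45, Ccne1, Rrm1, Pola1 and Rrm2 the call depends on whether it is removed. Gins1, Rfc4 and E2f1 passed in neither fit, with log2 fold changes of -0.15, -0.061 and -0.046 after removal and values above 0 without it.

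**Figure D3:**
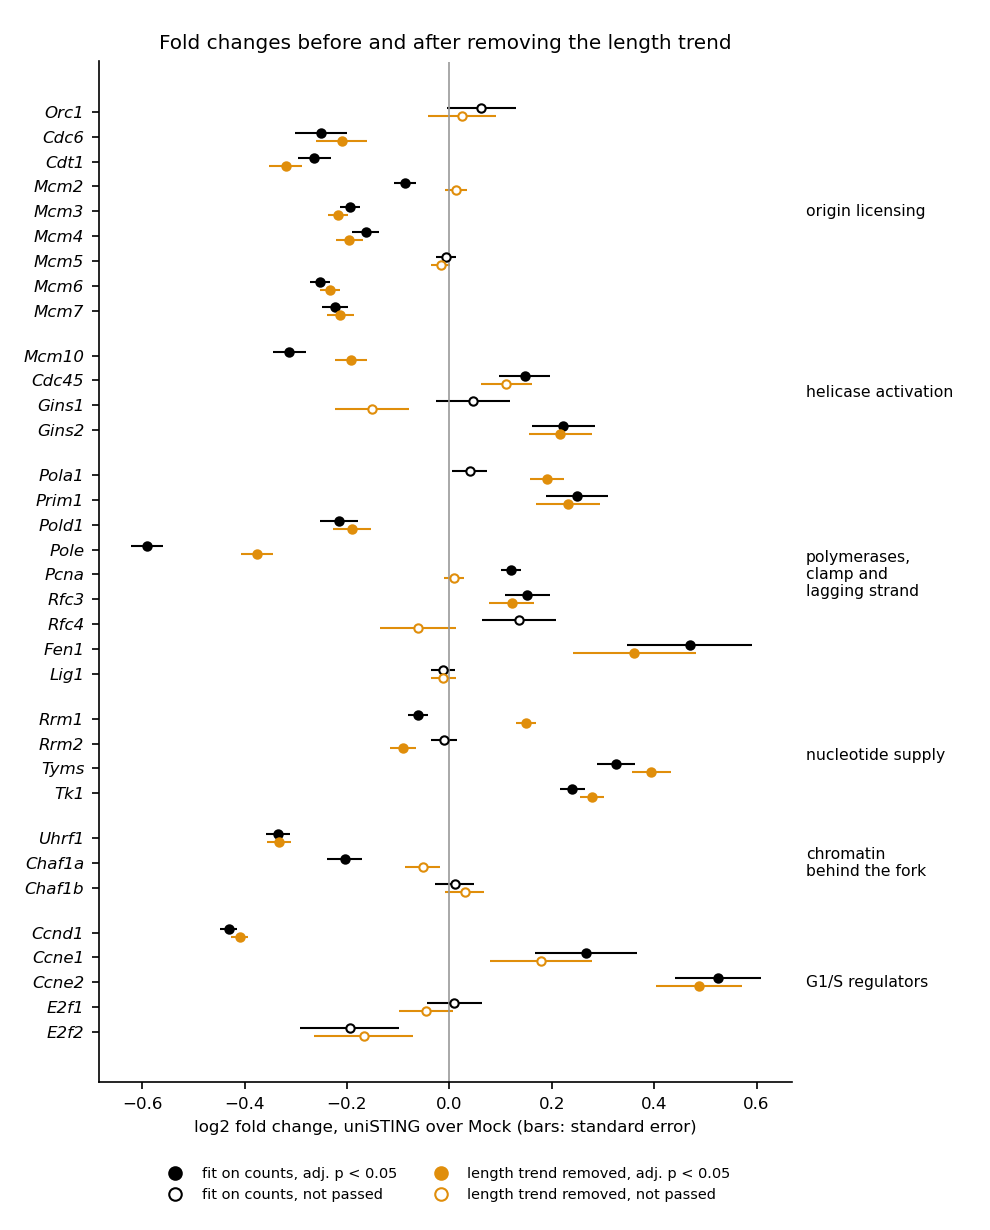
Log2 fold change of each of the 34 genes, uniSTING over Mock, with its standard error, in the fit on the counts (black) and with the length trend removed (orange); filled points passed an adjusted p of 0.05. The pairs of points of Pole, Rrm1, Gins1, Rfc4, Chaf1a and Pola1 lie farthest apart, and Rrm1 passed on opposite sides of 0.

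**Figure D4:**
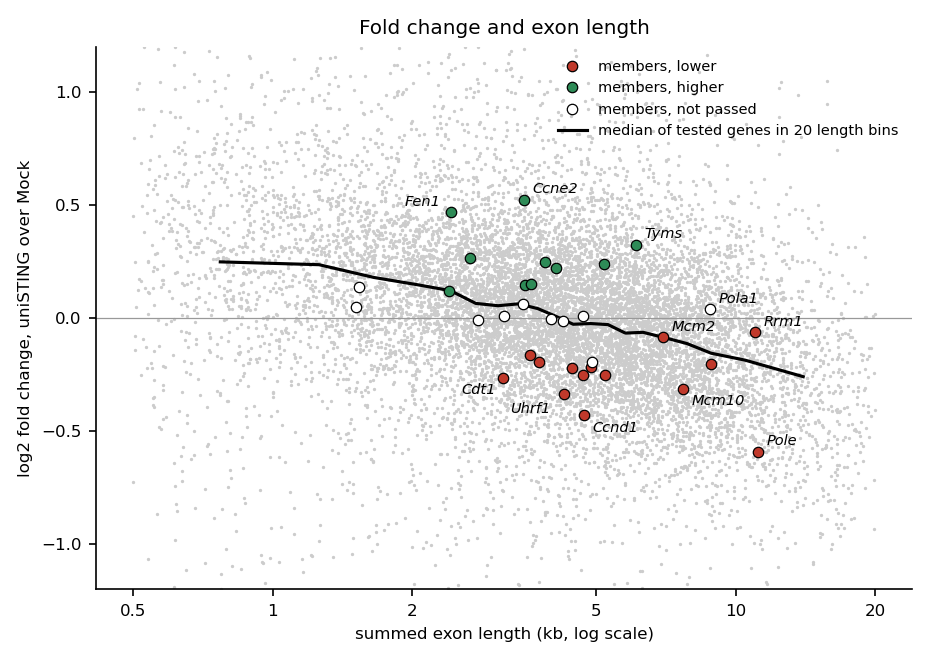
Log2 fold change, uniSTING over Mock, against summed exon length on a log axis, for the tested genes (grey) and the 34 genes (red fell, green rose, white did not pass); the black line is the median of tested genes in length bins, and genes outside the plotted ranges are not drawn. The line slopes downward with length; Pole lies below it, Rrm1 and Pola1 above it and Mcm2 on it.

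Of the 34 genes, 28 had a RefSeq promoter in the table used. The words searched were the 4 E2F words given above, on both strands. Of these 28 genes, 13 held at least 1 such word (46.4%), against 2.60% of the 27025 genes in the table, and per window the shares were 38.2% of 34 windows and 2.26% of 32851. The shares of the table include genes too low to be tested here, while all 34 genes were tested. Of the 13 genes with a word 7 fell, 1 rose and 5 did not pass, and of the 15 without one 4 fell, 7 rose and 4 did not pass. Among the tested genes with a promoter in the table, 33.6% of the 459 with a word fell and 21.6% rose, against 26.7% and 25.6% of the 8796 without one. With the length trend removed these shares were 27.0% and 23.1% with a word and 22.4% and 25.1% without. Some RefSeq start sites may lie within a gene. The only window of E2f1, counted without a word, appears to hold coding sequence, so a word at another start would be missed. A match is a match of letters only, and whether a factor bound there was not measured.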

How the data were processed

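RNA-seq of 4 libraries of 4T1 cells was analysed, 2 with uniSTING mRNA and 2 with Mock (EGFP) mRNA, grouped by their titles. The deposited values are raw counts per gene that the authors made, per the file headers, with featureCounts 2.0.1 in paired-end mode, on exons of the Ensembl 103 annotation, without options for strand or for reads that overlap several genes. By its default, featureCounts leaves a read pair that matches several genes equally uncounted. Genes with many shared exon bases, such as Fen1, Gins2 and Chaf1a, may therefore be counted too low. Reads of antisense genes are not told apart by strand. The aligner was HISAT2 and the build GRCm39, per the submitters' processing notes. No version of the aligner was given there. Symbols matched 52093 of 53647 gene identifiers; 32115 genes had no count.

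Counts were fitted with edgeR 4.0.16 (R 4.3.3): TMM scaling, filterByExpr (minimum count 10, minimum total 15), glmQLFit and glmQLFTest, and Benjamini-Hochberg adjustment over all 12972 tested genes at a threshold of 0.05. An exact permutation test of 2 libraries against 2 cannot reach this threshold, so the fit across genes was used throughout. Standard errors are derived from the F statistic and are approximate. CPM are counts over library totals scaled by TMM, multiplied by 1000000. To remove the length trend, a lowess curve (span 0.3) of each library's log counts on exon length was entered as an offset. DESeq2 1.42.0, limma 3.58.1 (voom), other filters and scalings, the replicate number as a block and leaving out each library were alternatives. The script was tested on simulated data. All 34 genes are named. Of the wider list, the 4 largest changes in each direction and a panel of 15 genes are named, some of them in both. Other subunits of complexes, other genes grouped under origin licensing and the ends of the range of the G2 and mitosis genes were named after their values were seen. The genes and lists were chosen with earlier results of these data known. Promoter sequences are from RefSeq (GRCm38.p6) and are not placed on GRCm39.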

Additional observations from a re-analysis of the deposited data

How the results depend on the processing

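The number of genes that fell with uniSTING was 14, and between 12 and 15 in each alternative. The number that rose was 10, 5 with DESeq2 and between 6 and 9 with a library left out. DESeq2 lost 7 calls (Mcm2, Cdc45, Gins2, Rfc3, Fen1, Rrm1 and Ccne1); the cause was not tested. The median log2 fold change of the 34 genes, -0.0085, lay at -0.025 with library totals alone (an alternative chosen after seeing the data), at -0.031 with the length trend removed, with or without the replicate block, and between -0.025 and 0.0085 with a library left out. With the length trend removed, Mcm2 turned to 0.013 and Rrm1 to 0.15 on the log2 scale, as they did with the replicate block added to it. With the replicate block alone 14 fell and 9 rose, and only Ccne1 lost its call (adjusted p = 0.0520). The labels do not say that the numbers pair the libraries: deviations of libraries with the same number correlated at 0.68 over 10041 genes, over only 2 pairs. With 2 libraries a group, how separate cultures vary cannot be shown, and a small change that did not pass may still be present. Genes at about 10 CPM, such as Fen1 and Ccne1, have the largest standard errors among the 34.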
